A study of Mus musculus with 8 samples.

Results

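The genes described here encode Polycomb repressive complex 2 (PRC2): the catalytic subunits Ezh1 and Ezh2, the core subunits Eed, Suz12, Rbbp4 and Rbbp7, and the accessory subunits Jarid2, Aebp2, Mtf2 and Phf19. These 10 genes were found by symbol among the 54418 Ensembl genes of the deposited tables, each under a single identifier. The RNA came from melanocyte stem cells, the pigment-cell reserve of the hair follicle, sorted from the dorsal skin of 21-day-old mice of the mixed C57Bl-6;129Sv strain as live, non-autofluorescent cells positive for GFP. All mice carried floxed Bmi1 alleles (Bmi1fl/fl), Dct-rtTA and TRE-H2B-GFP, a histone-GFP reporter switched on through the melanocyte gene Dct, and were given doxycycline pellets. The 4 control libraries came from mice of that genotype without Cre, and the 4 Bmi1-deleted libraries from mice that also carried Tyrosinase-Cre, a recombinase driven by a pigment-cell promoter. Because only the deleted group carried Cre, an effect of Cre itself cannot be told apart from an effect of losing Bmi1. The labels do not state whether each replicate is a different animal, and the p-values therefore reflect no more than the spread among these libraries.

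PRC2 places methyl groups on lysine 27 of histone H3, a mark of silent developmental genes. Ezh2 or its paralog Ezh1 carries the methyltransferase domain, Eed reads the finished mark and stimulates the enzyme, Suz12 is the scaffold on which the complex is built, and the histone-binding proteins Rbbp4 and Rbbp7 complete the core. The accessory subunits define alternative forms of the complex: Mtf2 and Phf19, members of the Polycomb-like family, occur in PRC2.1, and Jarid2 and Aebp2 in PRC2.2. Bmi1 belongs to the partner complex PRC1, whose chromobox subunits bind the mark that PRC2 makes. The comparison asks whether the RNA of the PRC2 genes differed in cells in which Bmi1 was targeted.

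Libraries held 8882656 to 10368174 counts. Bmi1 itself had 705 to 859 counts in controls and 607 to 713 in Bmi1-deleted libraries, with a log2 change of -0.26 (SE 0.12, edgeR adjusted p = 0.607). The labels do not say which part of the gene was floxed, so the gene-level count is a limited check of the deletion. Cdkn2a, a cell cycle inhibitor gene known to be repressed by Bmi1, had 0 counts in all control libraries and 38 to 85 in the Bmi1-deleted ones. All 8 melanocyte markers (Dct, Tyr, Tyrp1, Pmel, Mlana, Mitf, Kit and Sox10) were detected, with a summed level of 8722 to 14460 CPM (counts scaled to library size) in controls and 4725 to 10000 in Bmi1-deleted libraries. Of the fibroblast markers, 15 of 16 tested had positive log2 changes (Bmi1-deleted against control), 0 of the 17 listed were at 0 counts, and their summed level was 5184 to 8839 CPM in controls and 8251 to 18420 in Bmi1-deleted libraries. None of the melanocyte, fibroblast, Schwann cell or keratinocyte markers passed edgeR's test in the main comparison. With the replicate number as a block, which called 2.41% of all genes, 7 of 8 melanocyte markers were lower. Higher in that fit were 7 of 16 fibroblast, 6 of 10 Schwann cell and 2 of 12 keratinocyte markers. DESeq2 without a block called 156 of 16011 genes, with 2 melanocyte markers lower and 4 fibroblast and 3 Schwann cell markers higher. Summed levels in controls and Bmi1-deleted libraries were 3256 to 5539 and 5230 to 7000 CPM for Schwann cell markers, 2114 to 2581 and 1709 to 3334 for keratinocytes, 507 to 670 and 502 to 806 for endothelial and mural cells, and 51.8 to 80.2 and 80.4 to 123 for immune cells. Apart from the fits with a fibroblast score given below, the part of these markers in the values of the PRC2 genes was not tested. In sorted bulk samples, fewer cells of a type and less RNA per cell cannot be told apart.

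Promoter sequences are shown for the paralogs Ezh1 and Ezh2, whose balance is described below, for Suz12, whose level differed most clearly between the groups, and for Phf19, the least abundant member. They come from RefSeq (GRCm38.p6), which held 14 promoters for the 10 members, and run 5′ to 3′ from 250 bases before the transcription start to 30 bases after it. Ezh1 lies on the minus strand at chr11:101226434-101226713, Ezh2 on the minus strand at chr6:47595001-47595280, Suz12 on the plus strand at chr11:79992856-79993135 and Phf19 on the minus strand at chr2:34913947-34914226. Capitals mark matches, on either strand, to the E2F words TTTCCCGC, TTTCGCGC, TTTGCCGC and TTTGGCGC, the binding motif of the factors that drive genes of cell division.
Ezh1: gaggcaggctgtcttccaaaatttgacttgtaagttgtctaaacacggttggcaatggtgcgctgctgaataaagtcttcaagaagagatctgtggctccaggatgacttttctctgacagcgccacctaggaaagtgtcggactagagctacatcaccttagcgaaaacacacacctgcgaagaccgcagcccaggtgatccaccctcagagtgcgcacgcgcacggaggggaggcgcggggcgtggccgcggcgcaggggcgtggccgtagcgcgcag
Ezh2: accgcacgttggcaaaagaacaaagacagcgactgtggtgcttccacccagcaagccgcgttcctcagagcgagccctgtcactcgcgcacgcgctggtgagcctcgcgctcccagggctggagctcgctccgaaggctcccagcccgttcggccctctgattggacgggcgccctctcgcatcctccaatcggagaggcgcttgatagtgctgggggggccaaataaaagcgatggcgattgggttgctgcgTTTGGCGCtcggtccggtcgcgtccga
Suz12: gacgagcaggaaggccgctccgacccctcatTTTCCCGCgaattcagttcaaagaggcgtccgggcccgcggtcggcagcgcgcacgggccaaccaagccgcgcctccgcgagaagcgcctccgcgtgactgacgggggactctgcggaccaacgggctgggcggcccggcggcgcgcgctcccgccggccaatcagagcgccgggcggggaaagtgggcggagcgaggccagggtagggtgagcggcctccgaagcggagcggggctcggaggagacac
Phf19: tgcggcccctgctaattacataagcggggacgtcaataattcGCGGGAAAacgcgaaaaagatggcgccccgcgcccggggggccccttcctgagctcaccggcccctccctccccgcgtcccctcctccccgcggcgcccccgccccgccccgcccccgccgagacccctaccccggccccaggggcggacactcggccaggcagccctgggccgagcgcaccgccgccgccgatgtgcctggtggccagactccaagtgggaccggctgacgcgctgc
In the full windows of 300 bases, which run 50 bases past the start, an E2F word was present in 3 of the 14 member promoters, those of Ezh2 (at position +4 from the start), Suz12 (at -219) and Phf19 (at -208), and in 2.26% of 32851 promoters of the same length in the RefSeq table. The Ezh1 promoter window held none. The E-box CACGTG, the kind of site bound by the melanocyte factor MITF, was present in the Rbbp4 window and in 7.15% of all, and the words TCATGTG (the core of the M-box), CCGGAAGT (an ETS site) and the consensus NRF1 site were in no member window and in 3.77%, 3.89% and 0.971% of all. The 4 printed promoters held 23 to 41 CpG dinucleotides in their 300 bases, the 14 member promoters 2 to 41, and the median over all promoters was 7. A match is a description of letters and was not tested as a binding site.

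None of the 10 PRC2 genes passed the test between control and Bmi1-deleted cells, so the subunit RNAs of this complex were not shown to change when Bmi1 was targeted. The call was made with edgeR's quasi-likelihood test at a Benjamini-Hochberg adjusted p under 0.05 over 16011 genes, of which 0.0937% were called. All 10 members were abundant enough to be tested, and DESeq2, limma-voom and limma on the deposited log2 TPM (values scaled to transcript length and library total) also called 0 of 10. Over all 16011 genes these tools called 156, 10 and 2, so calls were rare in any set of genes. At an unadjusted p under 0.05 there was 1 member, Suz12, against 8.27% of all genes. The log2 changes (Bmi1-deleted against control) were negative for 7 members and positive for 3, with a median of -0.16 beside 0.01 for all genes. With the replicate number as a block 0 of 10 passed as well, while the share of all genes called rose to 2.41%. For 9 members the pointwise 95% intervals lay within 0.617-fold and 1.37-fold of control, and for the sparse Phf19 the interval ran from 0.304-fold to 2.08-fold.

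**Figure D1:**
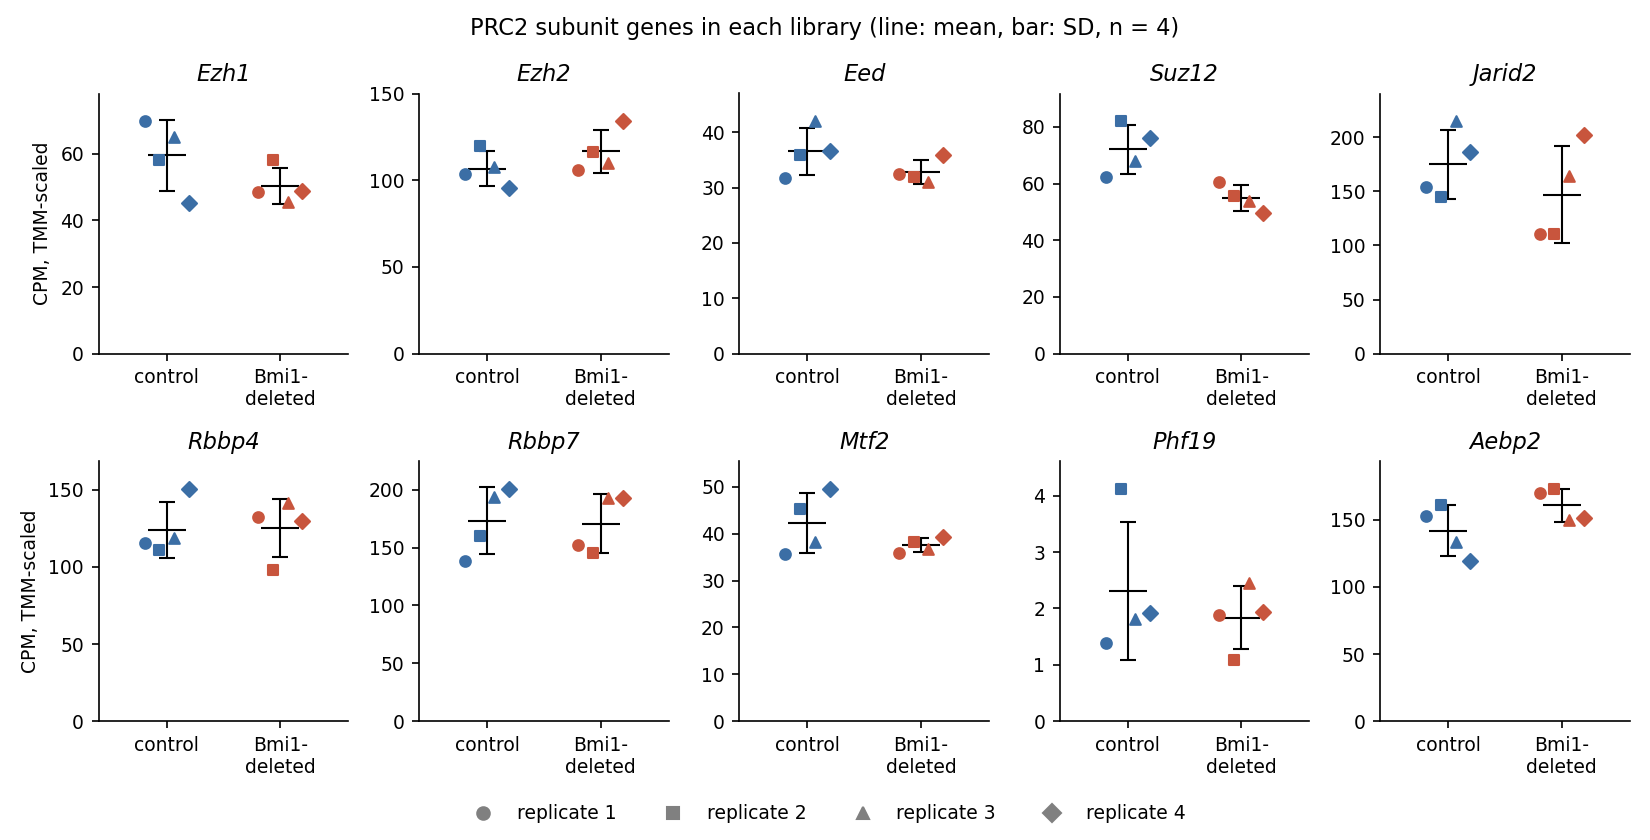
Level of each PRC2 subunit gene in CPM scaled by TMM (vertical axis from 0) in the 4 control and 4 Bmi1-deleted libraries. Symbols give the replicate number, the line the mean and the bar the SD. Suz12 is the only panel in which the groups do not overlap, with control libraries from 62.3 to 82.0 CPM and Bmi1-deleted libraries from 49.7 to 60.7.

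Neither catalytic gene passed the test. Ezh2 (ENSMUSG00000029687, mm10 chromosome 6, 47530139 to 47595341, minus strand), the main methyltransferase of dividing cells, had 974, 1165, 1006 and 846 counts in control libraries 1 to 4 and 963, 1172, 988 and 1182 in Bmi1-deleted libraries 1 to 4. The groups overlapped, and the highest library was Bmi1-deleted 4. The level was 107 ± 10.1 CPM in controls and 117 ± 12.3 in Bmi1-deleted cells (SD, n = 4; log2 change 0.13, SE 0.12, 95% interval -0.13 to 0.39, edgeR adjusted p = 0.875). In the pair of replicates 4 the difference was 0.49 on the log2 scale, and in the other pairs it was between -0.04 and 0.04. Ezh1 (ENSMUSG00000006920, chromosome 11, 101191115 to 101226463, minus strand), which is known for a weaker enzyme activity and for expression in resting cells, had 656, 564, 607 and 400 counts in controls and 440, 584, 409 and 431 in Bmi1-deleted libraries. Control 4 was the lowest of all 8 libraries, and controls 1 and 3 were the highest in CPM. The level was 59.5 ± 10.6 CPM in controls and 50.2 ± 5.42 in Bmi1-deleted cells (log2 change -0.24, SE 0.16, 95% interval -0.58 to 0.10, edgeR adjusted p = 0.768).

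Suz12 (ENSMUSG00000017548, chromosome 11, 79993106 to 80034123, plus strand), the scaffold subunit, was the member with the clearest difference. It had 586, 796, 636 and 673 counts in control libraries 1 to 4 and 550, 561, 484 and 438 in Bmi1-deleted libraries 1 to 4. Every Bmi1-deleted library lay below every control library in CPM, although Bmi1-deleted 1 (60.7 CPM) was close to control 1 (62.3 CPM). Suz12 was the 1 member of 10 whose groups did not overlap, as was the case for 5.18% of all tested genes. The level was 72.1 ± 8.70 CPM in controls and 55.0 ± 4.57 in Bmi1-deleted cells, 0.762-fold of control (n = 4; log2 change -0.39, SE 0.13, 95% interval -0.68 to -0.10). The unadjusted p was 0.0118 and the edgeR adjusted p = 0.428, so the difference did not pass the correction over all genes. With the replicate block the log2 change was -0.39 (edgeR adjusted p = 0.206), and with the fibroblast marker score of each library as a covariate it was -0.50 (edgeR adjusted p = 0.311). The difference was negative in all 4 same-numbered pairs, at -0.04, -0.56, -0.34 and -0.62 on the log2 scale for replicates 1 to 4. In the deposited TPM, Suz12 stood at 6.98 ± 1.42 in controls and 4.80 ± 1.09 in Bmi1-deleted libraries, with overlapping groups.

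Eed (ENSMUSG00000030619, chromosome 7, 89954654 to 89980983, minus strand), the reader of the mark, had 298, 349, 392 and 323 counts in controls and 294, 321, 279 and 317 in Bmi1-deleted libraries. The groups overlapped, with control 3 the highest. The level was 36.5 ± 4.21 and 32.8 ± 2.16 CPM (log2 change -0.15, SE 0.15, 95% interval -0.49 to 0.18, edgeR adjusted p = 0.886). The histone-binding genes Rbbp4 and Rbbp7, whose proteins also serve the NuRD, Sin3 and CAF-1 complexes, were nearest to no difference. Rbbp4 (ENSMUSG00000057236, chromosome 4, 129307100 to 129335370, minus strand) stood at 124 ± 18.01 CPM in controls and 125 ± 18.8 in Bmi1-deleted cells (log2 change 0.02, 95% interval -0.29 to 0.32). Rbbp7 (ENSMUSG00000031353, chromosome X, 162760402 to 162779092, plus strand) stood at 173 ± 29.2 and 171 ± 25.7 CPM (log2 change -0.02, 95% interval -0.34 to 0.30).

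**Figure D2:**
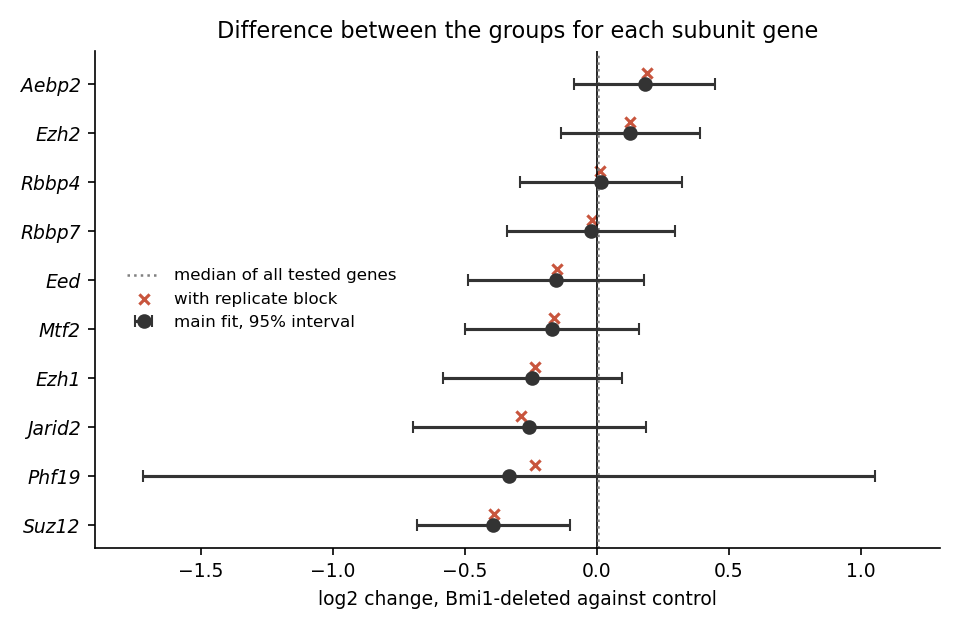
Log2 change of each PRC2 subunit gene, Bmi1-deleted against control (horizontal axis), with its 95% interval (bars), the value with the replicate number as a block (crosses) and the median of all tested genes (dotted line). The intervals of 9 genes include 0, that of Suz12 ends at -0.10, and that of Phf19 is the widest.

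Neither accessory subunit of PRC2.2, Jarid2 or Aebp2, passed the test. Jarid2 (ENSMUSG00000038518, chromosome 13, 44729474 to 44921643, plus strand), which helps bring the complex to chromatin, had 1449, 1409, 2005 and 1645 counts in control libraries 1 to 4 and 1000, 1111, 1474 and 1782 in Bmi1-deleted libraries 1 to 4. Bmi1-deleted 1 and 2 were the lowest libraries, while Bmi1-deleted 4 lay above 3 of the 4 controls in CPM. The level was 175 ± 31.7 CPM in controls and 147 ± 44.7 in Bmi1-deleted cells (n = 4; log2 change -0.25, SE 0.20, 95% interval -0.70 to 0.19, edgeR adjusted p = 0.832). With the block it was -0.29 (edgeR adjusted p = 0.291). Replicates 1 and 2 alone gave -0.44 (edgeR adjusted p = 0.203) and replicates 3 and 4 alone -0.15 (edgeR adjusted p = 0.883). With the fibroblast score as a covariate the sign turned, to 0.18 (edgeR adjusted p = 0.682). The fibroblast score is the mean log2 CPM of the 16 tested markers. It was highest in Bmi1-deleted 1 and 2 (6.99 and 6.65), the libraries with the least Jarid2, and lowest in control 3 (4.89), the library with the most. The score also went with genotype, as Bmi1-deleted 1, 2 and 3 lay above every control. Within each group it was higher in replicates 1 and 2 than in replicates 3 and 4. The part of fibroblast RNA in the Jarid2 difference was therefore not tested apart from genotype or replicate number.

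Aebp2 (ENSMUSG00000030232, chromosome 6, 140622663 to 140678472, plus strand), a zinc finger subunit that stabilises the complex, had 1440, 1566, 1249 and 1054 counts in controls and 1542, 1742, 1345 and 1334 in Bmi1-deleted libraries. It was higher in the Bmi1-deleted library of all 4 same-numbered pairs, by 0.10 to 0.34 on the log2 scale, but the groups overlapped. The level was 142 ± 19.0 and 161 ± 12.3 CPM (log2 change 0.18, SE 0.12, 95% interval -0.08 to 0.45, edgeR adjusted p = 0.792; 0.499 with the block). On the deposited log2(TPM + 1) scale the difference was -0.12, near the median of -0.14 over all genes on that scale.

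The Polycomb-like genes of PRC2.1 differed widely in abundance. Mtf2 (ENSMUSG00000029267, chromosome 5, 108065674 to 108109004, plus strand), which binds unmethylated CpG-rich DNA, had 336, 440, 358 and 438 counts in controls and 325, 385, 330 and 346 in Bmi1-deleted libraries. Controls 2 and 4 were the highest and the groups overlapped, at 42.2 ± 6.35 and 37.5 ± 1.52 CPM (log2 change -0.17, SE 0.15, 95% interval -0.50 to 0.16, edgeR adjusted p = 0.864). In the annotation Mtf2 shares 396 identical bases with Tmed5, a gene on the opposite strand with a similar number of counts (3296 against 2958 for Mtf2 over the 8 libraries), and whether the counting used strand is not stated in the labels. Phf19 (ENSMUSG00000026873, chromosome 2, 34893757 to 34914026, minus strand) had 13, 40, 17 and 17 counts in controls and 17, 11, 22 and 17 in Bmi1-deleted libraries. Only control 2 stood apart, and the log2 change of -0.33 (SE 0.64) was 0.10 without it. Its 95% interval ran from -1.72 to 1.05 on the log2 scale, so sizeable changes in either direction were not excluded. Processed pseudogenes at least 90% identical over 300 bases held 20 counts for Aebp2, 4 for Rbbp4, 2 for Rbbp7 and 0 for Mtf2. A further gene model (ENSMUSG00000096944), identical to Rbbp4 over 799 bases, was not analysed here.

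Levels were compared between genes in deposited TPM, which divide by transcript length. Between 73.8% (control 2) and 85.6% of each library's TPM belonged to 1 predicted gene, Gm23935, so each member was expressed as its share of the 10 members' TPM in the same library. Ezh2 was the largest part, at 22.5% ± 4.68 in controls and 24.9% ± 2.28 in Bmi1-deleted libraries (SD, n = 4), followed by Rbbp7 at 19.8% ± 2.77 and 21.2% ± 1.94. Ezh2 exceeded Rbbp7 in 5 of 8 libraries, so the order of this leading pair was not stable. Aebp2 (13.4% ± 2.63 and 14.8% ± 1.66), Jarid2 (12.97% ± 2.32 and 11.2% ± 1.65) and Eed (11.4% ± 2.25 and 9.94% ± 2.56) formed a middle tier below Rbbp7 in all 8 libraries, and Jarid2 exceeded Eed in only 5. Eed was in turn above Rbbp4 in all 8. Rbbp4, Mtf2, Suz12 and Ezh1 had means between 3.22% and 6.02% in either group, and their neighbours in this order changed places between libraries. Phf19 was last in all 8 libraries, at 0.102% to 1.99%. Against all 16011 tested genes, mean TPM put Ezh2 above 96.0% of them, Suz12 above 68.3%, Ezh1 above 68.0% and Phf19 above 30.4%. The mean of Phf19 rests on control 2 (4.85 TPM), the other 7 libraries having 0.169 to 1.02 TPM.

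**Figure D3:**
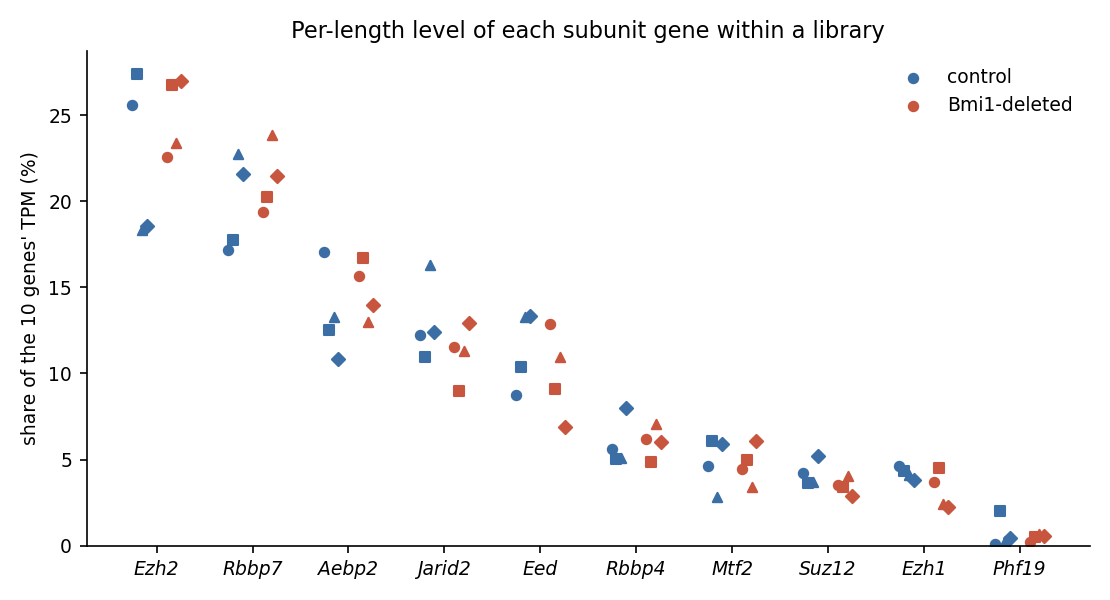
Share of each PRC2 subunit gene in the summed TPM of the 10 genes (vertical axis, percent) in each library, ordered by mean; colours give the group and symbols the replicate. Ezh2 and Rbbp7 lead with 17.2% to 27.4% each, and Phf19 stays at or under 1.99%.

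The ratio of counts of Ezh1 to Ezh2 does not depend on how a library is scaled. It was 0.674, 0.484, 0.603 and 0.473 in control libraries 1 to 4 and 0.457, 0.498, 0.414 and 0.365 in Bmi1-deleted libraries 1 to 4. Bmi1-deleted 1, 3 and 4 lay below every control, and Bmi1-deleted 2 lay among them. The mean log2 ratio was -0.86 ± 0.25 in controls and -1.22 ± 0.19 in Bmi1-deleted libraries, a difference of -0.36 (SD, n = 4; exact two-sided permutation p = 0.0857, adjusted p = 0.257 over 3 ratios; the smallest p that 70 assignments allow is 0.0286). The ratio was lower in 3 of 4 same-numbered pairs, and in TPM the difference was -0.62 (n = 4; exact permutation p = 0.0857). In TPM, Ezh2 made up 81.6% to 86.4% of the sum of Ezh1 and Ezh2 in controls and 85.6% to 92.3% in Bmi1-deleted libraries, with groups that overlapped. The ratio of Rbbp4 to Rbbp7 was 0.718 in controls and 0.734 in Bmi1-deleted libraries (geometric means, n = 4; exact permutation p = 0.857), and that of Mtf2 to Phf19 was 19.8 and 21.3 (n = 4; exact permutation adjusted p = 0.857).

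**Figure D4:**
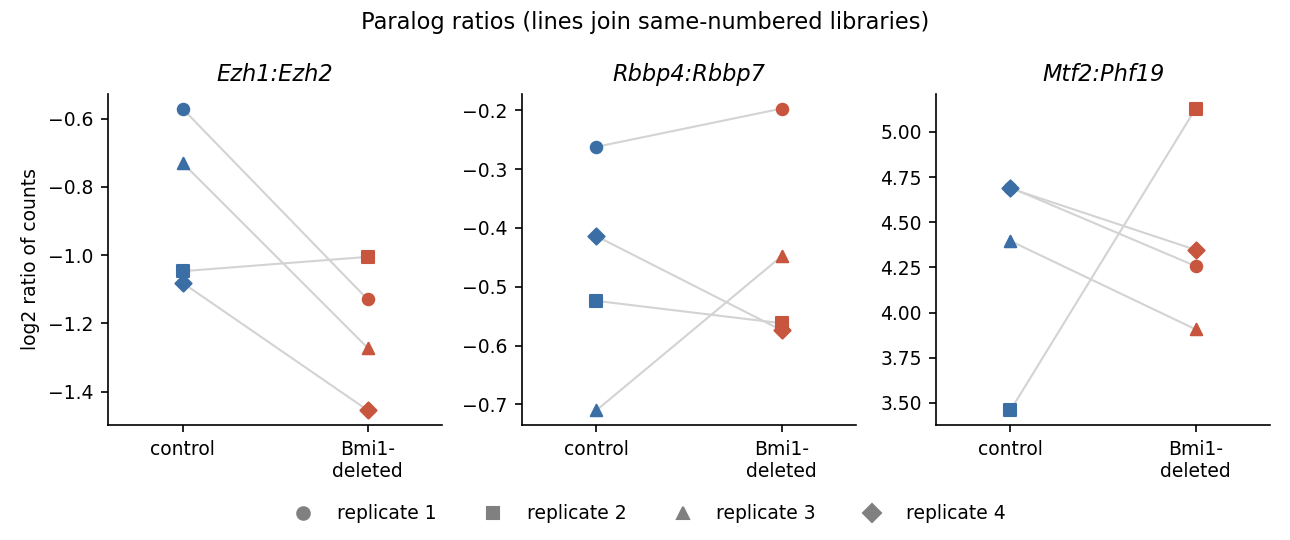
Log2 ratio of counts for the paralogs Ezh1 and Ezh2, Rbbp4 and Rbbp7, and Mtf2 and Phf19 (vertical axes, each with its own range) in controls and Bmi1-deleted libraries; grey lines join libraries with the same replicate number. The Ezh1 to Ezh2 ratio is lower in the Bmi1-deleted library of replicates 1, 3 and 4, and the other ratios go both ways.

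The ratio of TPM to CPM follows the transcript length by which the authors' tool divided, and so shifts when longer or shorter transcripts are counted. Relative to the median gene of a library, the 9 members with a mean of at least 100 counts had exact two-sided permutation p-values of 0.171 (Rbbp7) to 0.971 (Ezh2), before any correction. The largest difference was in Ezh1, whose log2 ratio was -0.32 ± 0.27 in controls and -0.58 ± 0.27 in Bmi1-deleted libraries (n = 4; exact permutation p = 0.229). That of Ezh2 was 1.22 ± 0.19 and 1.21 ± 0.07.

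For 3 members the libraries also separated by replicate number. Rbbp7 had 139 and 160 CPM in controls 1 and 2 and 152 and 145 in Bmi1-deleted 1 and 2, but 194 and 201 in controls 3 and 4 and 193 in each of Bmi1-deleted 3 and 4. Jarid2 was likewise higher in the 4 libraries of replicates 3 and 4 (164 to 215 CPM) than in those of replicates 1 and 2 (110 to 154). Aebp2 had the opposite pattern, at 119.2 to 151.3 CPM in replicates 3 and 4 and 153 to 173 in replicates 1 and 2. No label says what the replicate numbers share, and the split was noticed in these data. The share of all tested genes that split in this way was not counted, so whether 3 members is unusual cannot be told. Rbbp7 is X-linked, and the female libraries (controls 1 and 3 and Bmi1-deleted 1 by Xist and Y-linked counts) had 139, 194 and 152 CPM, against 145 to 201 in the male ones. With inferred sex as a covariate its log2 change was -0.06 (edgeR adjusted p = 0.959).

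PRC2 genes are known to be expressed with cell division, so each member was compared with a score of dividing cells, the mean log2 CPM of 34 tested S phase and mitosis genes. The score was highest in control 4 (3.91) and Bmi1-deleted 3 (3.54) and between 2.59 and 3.04 in the other 6 libraries. Over the 8 libraries Rbbp4 (r = 0.797, exact permutation p = 0.0158; rho = 0.690, p = 0.0694) and Rbbp7 (r = 0.776, exact permutation p = 0.0115; rho = 0.786, p = 0.0279) had positive coefficients with the score. Aebp2 had a negative one (r = -0.792, exact permutation p = 0.0227; rho = -0.810, p = 0.0218). For each of these 3 members the adjusted p over the 10 relations was 0.0757 for r, and the smallest adjusted p for rho was 0.140, so no relation passed. Without the 2 libraries farthest from the median score, r was 0.430 for Rbbp4, which thus rests on those libraries, 0.810 for Rbbp7 and -0.663 for Aebp2 (exact permutation p = 0.388, 0.0681 and 0.153). Ezh2, the member best known for following division, had r = -0.385 (exact permutation p = 0.344) and turned to 0.510 without those 2 libraries. Ezh1 had r = -0.633 (exact permutation p = 0.0914) and -0.094 without them (exact permutation p = 0.828). For Jarid2, Mtf2, Phf19, Suz12 and Eed r was 0.542, 0.621, 0.345, 0.253 and 0.187 over the 8 libraries. Without the 2 libraries it was 0.831, 0.564, 0.673, 0.240 and 0.761, so Jarid2 then had the largest coefficient of the 10 members. No relation passed without them either (smallest exact permutation adjusted p = 0.241). After centring within genotype, r was -0.894 for Ezh1 and -0.329 for Ezh2. For Rbbp4, Rbbp7 and Aebp2 it was 0.825, 0.786 and -0.831, and these centred values were not tested. The score ran from 2.59 to 2.98 in replicates 1 and 2 and from 2.97 to 3.91 in replicates 3 and 4. Rbbp7, Jarid2 and Aebp2 separated by the same numbers, and their coefficients were not tested apart from that split. Replicates 1 and 2 and replicates 3 and 4 have 4 libraries each, too few to give r within them.

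**Figure D5:**
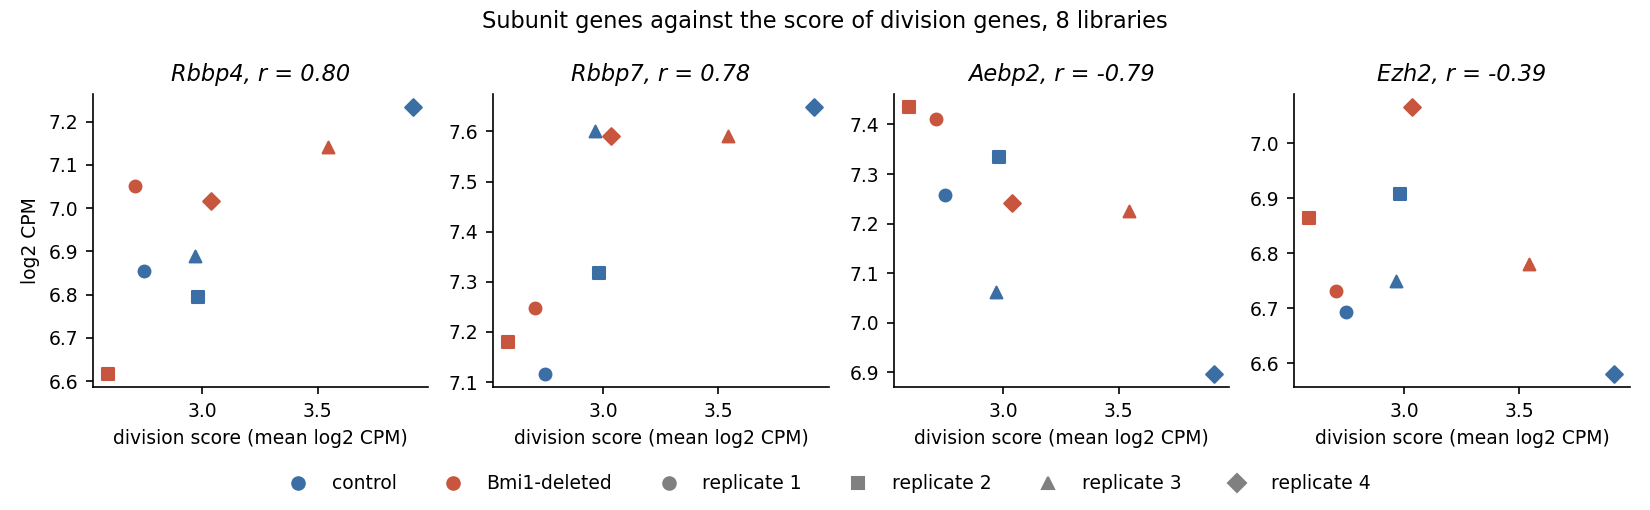
Log2 CPM of Rbbp4, Rbbp7, Aebp2 and Ezh2 (vertical axes, each with its own range) against the mean log2 CPM of 34 genes of cell division (horizontal axis) in 8 libraries; colours give the group and symbols the replicate. Control 4 and Bmi1-deleted 3 have the highest scores, and Aebp2 is lowest in control 4.

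Other genes of the Polycomb and histone H3 lysine 27 pathway were taken from lists of related genes, and none passed edgeR's test in the main comparison. With the replicate number as a block, which called 2.41% of all genes, 1 of 18 genes of PRC1 passed and 0 in each of the other lists. At an unadjusted p under 0.05, which 8.27% of all genes met, there were 5 of 18 genes of PRC1, 4 of 34 of cell division, 1 of 17 of the complexes sharing Rbbp4 and Rbbp7, 1 of 5 of the lysine 27 demethylases and acetylases, and 0 in each of the other lists. DESeq2 called 2 of these genes and limma-voom called 0, out of 156 and 10 called over all 16011 genes. Of 7 tested PRC2 partners outside the 10 members 0 passed, 6 had negative log2 changes and the median was -0.16; the lowest p was that of Lcorl, which encodes a PRC2.1 partner, at 46.1 ± 7.83 CPM in controls and 36.6 ± 7.65 in Bmi1-deleted cells (edgeR adjusted p = 0.701), and the most abundant was its relative Lcor at 97.3 ± 8.61 and 92.0 ± 11.4 CPM. Of the 5 enzymes that demethylate or acetylate lysine 27, 0 passed (median 0.00). Kdm6b, a demethylase that removes the PRC2 mark, stood at 586 ± 58.7 CPM in controls and 721 ± 77.0 in Bmi1-deleted cells (log2 change 0.30, SE 0.12, unadjusted p = 0.0313, edgeR adjusted p = 0.555). All 5 writers of lysine 36 methylation, a mark that opposes PRC2, had negative log2 changes and 0 passed (median -0.07); Nsd2 had the lowest p (-0.20, edgeR adjusted p = 0.727) and Nsd1 the highest level, 483 ± 27.3 and 460 ± 24.3 CPM. Of 7 genes of the H2A deubiquitinase 0 passed (median -0.04), with Asxl2 at -0.22 (edgeR adjusted p = 0.680) and Hcfc1 at -0.04.

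In PRC1, the partner complex, 0 of 18 tested subunit genes passed in the main comparison, 8 had positive and 10 negative log2 changes, and the median was -0.02. The lowest p belonged to Cbx8, a chromobox reader of the PRC2 mark, at 9.10 ± 0.859 CPM in controls and 17.3 ± 1.73 in Bmi1-deleted cells (log2 change 0.93, SE 0.22, edgeR adjusted p = 0.166). Phc3 was the most abundant subunit, at 166 ± 15.7 and 142 ± 9.94 CPM. Of 17 genes of NuRD, CAF-1 and Sin3, which share Rbbp4 and Rbbp7, 0 passed (median -0.09); Sin3a had the lowest p (-0.27, edgeR adjusted p = 0.582) and Chd4 the highest level, 1031 ± 123 and 1124 ± 56.9 CPM. Of 34 division genes 0 passed, 25 had negative and 9 positive log2 changes, and the median was -0.26; Mcm4 had the lowest p (-0.43, edgeR adjusted p = 0.501) and Dnmt1 the highest level, 165 ± 35.5 and 140 ± 4.08 CPM. Their summed level was 578 to 1109 CPM in controls and 489 to 728 in Bmi1-deleted libraries.

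The genes whose pattern over the 8 libraries was most like that of Ezh2, among 8766 named genes with a mean of at least 10 CPM, were Hipk2 (Pearson r = 0.947), Fbxo30 (0.943), Vezf1 (0.940), Rnf13 (0.936) and Ints11 (0.936). Those most like Ezh1 were Haus7 (r = 0.971), Atp2b4 (0.951), Tnrc6a (0.937), Zfp398 (0.934) and Disp1 (0.923). These are the highest of 8766 coefficients per gene from 8 shared libraries and are given as a description. The coefficient between Ezh1 and Ezh2 themselves was -0.006. Among the members, the highest coefficients were between Rbbp7 and Jarid2 (0.790) and between Mtf2 and Suz12 (0.694), and the lowest between Aebp2 and Jarid2 (-0.792).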

How the data were processed

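Gene-level tables for 8 libraries were used, 4 control and 4 Bmi1-deleted, grouped by the genotype in the titles. Libraries were made from 1 ng of total RNA with 15 PCR cycles before and 15 after ribosomal depletion, per the labels, so counts include PCR copies. The authors deposited estimated counts as whole numbers, made with Salmon 1.2.1 on mm10, tool and build per the submitters' processing notes. The second deposited table holds log2 values of TPM plus 1. Whether strand was used is not stated in the labels. Symbols and positions came from GENCODE M21.

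Counts were filtered with filterByExpr (16011 genes kept), scaled by TMM and compared with edgeR 4.0.16 (quasi-likelihood, robust, R 4.3.3). Standard errors came from the F statistic. DESeq2 1.42.0, limma 3.58.1, other filters and scalings, covariates and left-out libraries were alternatives. Single values were compared by exact permutation. The code was tested on simulated data. BLAST+ 2.17.0 found copies of at least 90% identity over 300 bases.

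After centring within genotype, same-numbered libraries correlated across genes at 0.124, 0.186, 0.147 and 0.180. Of the 8 libraries, 4 correlated best, among the 4 of the other group, with the library of their own number. Some such matches arise by chance, and correlations between differently numbered libraries are not given. These values therefore do not settle whether the numbers mark pairs. The main comparison did not use the replicate numbers, and a fit with them as a block was an alternative. No label says what a number shares. Genes named in the text were all 10 members, Bmi1 and Cdkn2a as a check, the lowest-p and the most abundant gene of each list of related genes with any that passed, and the 5 genes most like Ezh1 and Ezh2. The result of 1 related gene is not reported here. The members and lists were chosen with earlier results of these data known. Intervals include the spread between libraries.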

Additional observations from a re-analysis of the deposited data

Results flagged for a closer look

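Of 64 sets of 4 libraries examined (10 members in CPM, 10 in TPM, 9 TPM to CPM ratios and 3 paralog ratios, in each group), 2 had a library whose gap to the nearest other exceeded Dixon's critical value at 95%, and chance flags about 1 in 20. Phf19 had 4.85 TPM in control 2 and 0.169 to 0.541 in the other controls, and its counts were 40 against 13 to 17. Control 2 was also the library with the lowest TPM share of Gm23935 (73.8%, against 79.4% to 85.5% in the other controls). The part of that share in the Phf19 value was not tested. Rbbp7 had 36.7 TPM in Bmi1-deleted 3 and 25.9 to 27.1 in the other Bmi1-deleted libraries, while its CPM there (193) equalled that of Bmi1-deleted 4.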

How the results depend on the processing

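No PRC2 gene passed in any of the 25 alternatives, in which between 2 (log2 TPM) and 386 (replicate block) of all genes did. Of 249 member values, 225 kept their direction and 24 turned. Suz12 stayed negative in all 25 (-0.50 to -0.31; adjusted p 0.136 to 0.830). Ezh2 turned with replicates 1 and 2 only (-0.005) and in log2 TPM (-0.11), where all 10 members were negative and the median of all genes was -0.14; Rbbp4 (-0.21) and Aebp2 (-0.12) turned there too. With the fibroblast score Jarid2 (0.18) and Rbbp7 (0.24) turned. Rbbp4 also turned with library totals (-0.024), with the block without pair 1 (-0.048) or 3 (-0.07) and with replicates 3 and 4 only (-0.013), and spanned -0.053 to 0.123 with single libraries left out. Rbbp7 turned with the block without pair 2 (0.019) and spanned -0.114 to 0.056 with single libraries left out. Phf19 turned with the block without pair 2 (0.29) and with replicates 3 and 4 only (0.20), and spanned -0.51 to 0.10 with single libraries left out. The cause was not tested.

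The replicate block changed no member's call but moved the count of all genes past the threshold from 15 to 386, and to 351, 113, 238 and 189 without pairs 1 to 4. That count was 156 with DESeq2, 380 without a count filter, 156 with replicates 1 and 2 only, 26 with the fibroblast score, 2 in log2 TPM, and 8 (without control 2) to 45 (without control 1) with single libraries left out. In TPM the differences in log2 ratio were -0.62 for Ezh1 to Ezh2 (exact permutation p = 0.0857) against -0.36 in counts, -0.068 for Rbbp4 to Rbbp7 and -0.21 for Mtf2 to Phf19, against 0.03 and 0.10 in counts. With single libraries left out they spanned -0.05 to 0.10 and -0.18 to 0.27, and that of Ezh1 to Ezh2 -0.43 to -0.26. With the pairing as a block the Ezh1 to Ezh2 difference was -0.36 (adjusted p = 0.750, exact sign permutation). The division score's r for Ezh2 turned from -0.385 to 0.510 without the 2 farthest libraries. Depth limited Phf19 alone among the members, at 11 to 40 counts.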
